A study of Homo sapiens with 6 samples.

Results

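The cytosolic ribosomal protein genes were examined in a glutamine-independent derivative of a breast cancer cell line and in the line it came from. They were taken as every gene of the count tables whose symbol is RPL or RPS followed by a number, with the letter endings of the standard names, together with RPLP0, RPLP1, RPLP2 and RPSA. That rule found 86 of 28265 genes, 52 of the large and 34 of the small ribosomal subunit. Of these, 77 are the canonical proteins of the ribosome (46 large, 31 small) and 9 are variant copies, which are paralogs that resemble a canonical member. A few ribosomal proteins, such as FAU, RACK1 and RPL36AL, lie outside the rule by their names and are described at the end.

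The GlnIND cells are MDA-MB-231 cells able to grow without glutamine; they were kept for over 6 weeks in RPMI medium lacking glutamine, with 10% dialysed fetal bovine serum. The parental cells are MDA-MB-231, a human triple-negative breast cancer line, in RPMI medium containing glutamine with 10% serum that was not dialysed. The derivation of the cells, the glutamine supply and the serum therefore differ together and cannot be told apart. Polyadenylated RNA was sequenced in 3 libraries of each, and the labels do not say whether these came from separate cultures or whether the derivative is a single clone, so each p-value reflects library-to-library spread that may be technical. The libraries held 21276815 to 24594248 counts in GlnIND cells and 18256219 to 21741371 in parental cells, and the members took 5.29 ± 0.27% of them in GlnIND cells and 5.17 ± 0.41% in parental cells (SD, n = 3 each). Mesenchymal markers of the line such as VIM, CD44 and AXL were detected in every library, and of 5 luminal or epithelial markers ESR1, PGR and CDH1 stayed under 1 CPM (read counts scaled to a common library size) in all of them. The other two were present: ERBB2 had 61.8 to 65.2 CPM in GlnIND libraries, against 31.5 to 41.4 CPM in parental libraries, and EPCAM had 1.88 to 2.61 CPM in GlnIND libraries, against 12.0 to 17.2 CPM in parental libraries. The keratins KRT8 and KRT18 had log2 fold changes, GlnIND over parental, of -1.12 and -1.45 (adjusted p in edgeR = 2.11e-06 and 2.04e-06). Of 5 markers of other cells, ALB was at 0, PTPRC stayed under 1 CPM, and the summed level of all 5 had a median of 17.7 CPM and a highest value of 18.1 CPM in GlnIND libraries, against a median of 9.04 CPM and a highest value of 9.52 CPM in parental libraries, chiefly COL1A1 and PECAM1; their part in the results was not tested.

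A eukaryotic ribosome joins a large subunit, which makes the peptide bond, to a small subunit, which reads the mRNA, and each canonical protein is present as a single copy or, for the stalk proteins, a few copies. Their mRNAs are among the most abundant of dividing cells. Most begin with a terminal oligopyrimidine (TOP) tract, a C followed by pyrimidines at the very start of the mRNA, through which nutrient signalling by mTORC1 and the RNA-binding protein LARP1 controls their translation and stability.

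The starts of 10 genes are shown because they carry the TOP tract of canonical members at both ends of the measured range, and because they contrast variant copies with the genes they resemble. Each line gives 10 bases before and 20 bases from the annotated RefSeq start (GRCh38.p14), so that the start is the base at position 11, and capitals mark a C followed by at least 4 pyrimidines that begins within 10 bases of it.
RPS25: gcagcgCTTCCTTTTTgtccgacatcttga
RPL35: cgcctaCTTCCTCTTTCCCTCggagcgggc
RPS6: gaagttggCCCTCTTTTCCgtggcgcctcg
RPL29: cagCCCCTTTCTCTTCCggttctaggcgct
RPL31: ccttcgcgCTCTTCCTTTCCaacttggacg
RPS27: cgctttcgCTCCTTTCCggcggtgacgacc
RPS27L: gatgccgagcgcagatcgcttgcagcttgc
RPL22: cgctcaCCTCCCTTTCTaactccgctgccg
RPL22L1: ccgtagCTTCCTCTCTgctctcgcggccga
RPL7L1: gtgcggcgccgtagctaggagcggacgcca
The windows lie at chr11:119018324-119018353 (minus strand) for RPS25, chr9:124861938-124861967 (minus) for RPL35, chr9:19380217-19380246 (minus) for RPS6, chr3:51995876-51995905 (minus) for RPL29 and chr2:101002279-101002308 (plus) for RPL31. Those of the variant copies and their counterparts lie at chr1:153990752-153990781 (plus) for RPS27, chr15:63157458-63157487 (minus) for RPS27L, chr1:6199576-6199605 (minus) for RPL22, chr3:170870176-170870205 (minus) for RPL22L1 and chr6:42879606-42879635 (plus) for RPL7L1.

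A RefSeq start was found for 69 of the 86 members. A C followed by 4 pyrimidines stood exactly at the start in 44 of the 69 (63.8%), against 4.95% of 10701 other tested genes. Allowing the tract to begin within 10 bases of the start, 57 of the 69 (82.6%) had one, against 33.7% of the other genes. Among canonical members it stood at the start in 25 of 38 of the large and 17 of 24 of the small subunit, and among variant copies in 2 of 7. The RPS27L and RPL7L1 windows had no such tract, while RPL22L1 had one as RPL22 did. By level change in GlnIND cells, described below, the tract was at the start of 3 of 6 canonical members that rose, 18 of 26 that fell and 21 of 30 that passed in neither direction. In the 300 bases around the start, searched on both strands, the ETS core CCGGAAG occurred in 23 of 69 members (33.3%) and 19.0% of other genes, and the YY1 core AAGATGGC in 7 of 69 (10.1%) and 5.29% of other genes. The ETS core was present in 5 of the 6 canonical members that rose, 8 of the 26 that fell and 8 of the 30 others. These are matches of letters only.

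Ribosomal protein mRNAs did not move as one block in GlnIND cells: 34 members fell, 10 rose and 38 were not called, among 82 with enough counts to be tested (edgeR's quasi-likelihood test, adjusted p under 0.05 over 13949 genes). Over all tested genes 27.9% fell and 28.4% rose, 56.3% in all. Among 7142 other genes within the members' CPM range, a set added after the data were seen, 38.6% fell and 22.3% rose. The median log2 fold change, GlnIND over parental, was -0.16 for the members and 0.03 for all genes. Sizes were moderate: the SD of the log2 fold changes was 0.35 over the 73 canonical members at 10 CPM or more, 0.55 over other genes in their CPM range and 1.15 over all genes, and RPS25 alone of those 73 passed 1 in size, a change called for 5.26% of all genes downwards and 9.84% upwards. The values of all GlnIND libraries lay below those of all parental libraries for 31 members and above them for 11, against 31.3% and 33.7% of all tested genes.

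**Figure D1:**
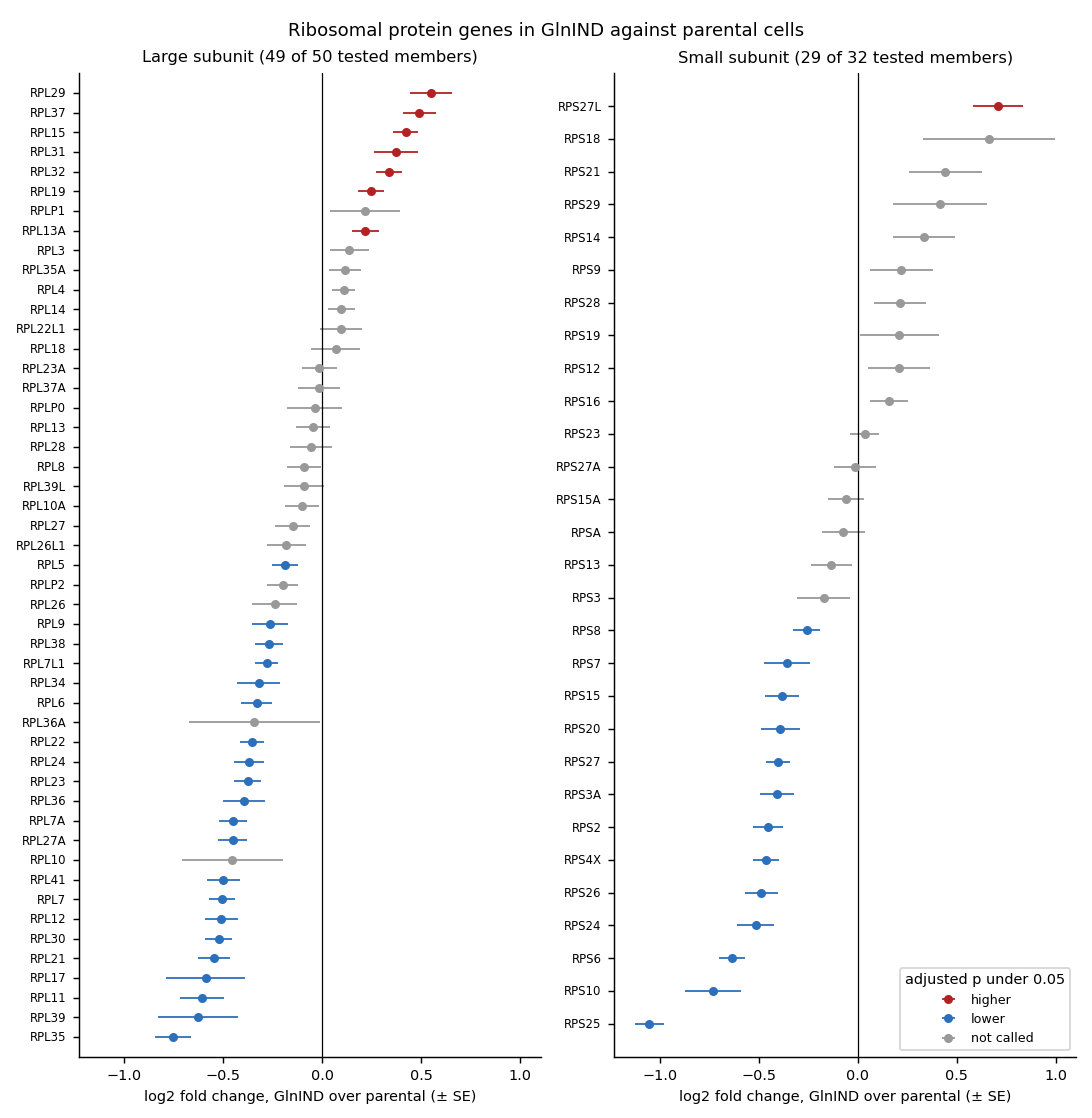
Log2 fold change of tested members (x axis, GlnIND over parental, bars ± SE of the edgeR fit), large subunit on the left and small subunit on the right, ordered by value. Of the members shown, red marks 8 that rose, blue 34 that fell and grey 36 not called.

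The split between rising and falling members depended on the scaling and on single libraries. With plain library totals 20 members rose and 23 fell, and with upper-quartile scaling 15 rose and 27 fell. The median of all genes then shifted to 0.18 and 0.12, and the members' median minus that of all genes was -0.20 and -0.19, against -0.19 with the TMM scaling used throughout. The number that rose was 5 without GlnIND library 1, 6 without parental library 2, 15 without parental library 1 and 17 without parental library 3. The number that fell was 28 to 46 over the 6 libraries left out in turn. Over all genes, 3151 to 4601 rose and 3337 to 4679 fell in these fits.

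Members of both subunits fell, while those that rose were mostly of the large subunit; the difference between subunits was not tested. For comparison, 27.9% of all tested genes fell and 28.4% rose, and among other genes in the members' CPM range 38.6% fell and 22.3% rose. Of 46 canonical large-subunit members 20 fell and 8 rose, with a median log2 fold change of -0.19. Of 31 canonical small-subunit members 13 fell and 1 rose, with a median of -0.13. With library totals these medians became -0.04 for the large and 0.02 for the small subunit, against 0.18 for all genes. Without parental library 3, 7 small-subunit members rose and their median was -0.04. Without parental library 1, 4 rose and the small-subunit median of -0.24 lay below the large-subunit one of -0.21.

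Summed over canonical members, large-subunit mRNA amounted to 33353, 31054 and 30095 CPM in GlnIND libraries 1 to 3, against 31903, 32981 and 35390 CPM in parental libraries. Small-subunit mRNA summed to 18679, 17176 and 16597 CPM in GlnIND libraries, against 18318, 19327 and 21558 CPM in parental libraries. Each sum overlapped between the groups. The side on which the large-subunit mean lay turned with the scaling: as a plain share of counts and with variant copies included, large-subunit members took 3.44 ± 0.16% in GlnIND cells and 3.30 ± 0.22% in parental cells, and small-subunit members 1.85 ± 0.10% in GlnIND cells and 1.88 ± 0.19% in parental cells (SD, n = 3 each). The ratio of the large to the small sum, which no scaling between libraries touches, was 1.79, 1.81 and 1.81 in GlnIND libraries and 1.74, 1.71 and 1.64 in parental libraries, so that all GlnIND libraries lay above all parental ones. The 3 against 3 design cannot give an exact permutation p below 0.10, and none is given for a sum over members. Per kilobase of coding sequence the median level of large-subunit members at 10 CPM or more was 1270 in GlnIND cells and 1406 in parental cells, and that of small-subunit members 1164 in GlnIND cells and 1350 in parental cells. RPL41, the smallest ribosomal protein, had the highest level per kilobase in both groups, at 4959 in GlnIND cells and 7011 in parental cells. Its coding length is 75 bases and untranslated bases are left out, so this rank depends on the divisor. In CPM, RPL41 had a mean of 372 in GlnIND cells and 526 in parental cells, below the mean large-subunit medians of 640 and 694.

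RPS25, a small-subunit protein known for its part in initiation at internal ribosome entry sites, fell most. It stood at 357, 325 and 331 CPM in GlnIND libraries, against 678, 670 and 753 CPM in parental libraries. The groups were far apart compared with the spread inside each, with a log2 fold change of -1.05 ± 0.071 (SE; adjusted p in edgeR = 2.41e-06). RPL35, which sits at the exit of the peptide tunnel, had 314, 284 and 280 CPM in GlnIND libraries, against 559, 455 and 466 CPM in parental libraries. All GlnIND values lay below all parental ones, at a log2 fold change of -0.75 ± 0.089 (adjusted p in edgeR = 8.29e-05). RPS6, the substrate of the S6 kinases downstream of mTORC1, had 760, 675 and 677 CPM in GlnIND libraries, against 1119, 1071 and 1091 CPM in parental libraries. The groups did not overlap and the log2 fold change was -0.64 ± 0.067 (adjusted p in edgeR = 3.93e-05).

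RPL11, which joins RPL5 and the 5S rRNA in a particle that can bind MDM2, had 542, 534 and 514 CPM in GlnIND libraries, against 976, 723 and 722 CPM in parental libraries. Parental library 1 was the highest, and the groups did not overlap, at a log2 fold change of -0.61 (adjusted p in edgeR = 0.00116). Its partner RPL5 fell by 0.19 on the log2 scale. RPL21, a large-subunit protein, had 280, 268 and 244 CPM in GlnIND libraries, against 349, 392 and 416 CPM in parental libraries. RPL30, also of the large subunit, had 485, 422 and 431 CPM in GlnIND libraries, against 649, 621 and 650 CPM in parental libraries. Neither gene overlapped between groups, and they fell by 0.55 and 0.52 on the log2 scale (adjusted p in edgeR = 0.000368 and 0.000169).

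RPL39, a very small protein lining the peptide tunnel, had 128, 120 and 116 CPM in GlnIND libraries, against 119, 201 and 243 CPM in parental libraries. Parental library 1 lay among the GlnIND values, so the groups overlapped, at a log2 fold change of -0.63 ± 0.20 (adjusted p in edgeR = 0.0233). Its call was lost when any library other than parental library 1 was left out, with log2 fold changes of -0.68 to -0.42 (adjusted p in edgeR = 0.0538 to 0.0783), and with library totals (adjusted p = 0.0766). RPS10, a protein of the small-subunit head mutated in some Diamond-Blackfan anaemia, had only 19.5, 18.8 and 16.3 CPM in GlnIND libraries, against 36.6, 25.2 and 28.6 CPM in parental libraries. The groups did not overlap, at a log2 fold change of -0.73 (adjusted p in edgeR = 0.00175). Its level per kilobase was the lowest of the 29 small-subunit members compared, and in GENCODE the read-through gene RPS10-NUDT3 covers 39.4% of its exon bases, so its level is uncertain.

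Of the members that rose, RPL29, a large-subunit protein also described as a heparin-binding protein, had 617, 577 and 593 CPM in GlnIND libraries, against 336, 422 and 462 CPM in parental libraries. The groups did not overlap, at a log2 fold change of 0.55 ± 0.10 (adjusted p in edgeR = 0.00147). RPL37, a zinc-binding protein of the large subunit, had 791, 693 and 742 CPM in GlnIND libraries, against 511, 490 and 582 CPM in parental libraries. All GlnIND values were higher, at a log2 fold change of 0.49 ± 0.081 (adjusted p in edgeR = 0.000646). RPL15, a large-subunit protein in which Diamond-Blackfan anaemia mutations are known, had 1465, 1395 and 1366 CPM in GlnIND libraries, against 1004, 1071 and 1079 CPM in parental libraries. It too did not overlap, and its log2 fold change was 0.42 ± 0.062 (adjusted p in edgeR = 0.000308).

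RPL32, a large-subunit protein, had 1074, 984 and 953 CPM in GlnIND libraries, against 794, 766 and 824 CPM in parental libraries. RPL31, found near the tunnel exit, had 770, 681 and 700 CPM in GlnIND libraries, against 458, 558 and 642 CPM in parental libraries. Neither overlapped, with log2 fold changes of 0.34 and 0.38 (adjusted p in edgeR = 0.00192 and 0.0163). The call of RPL31 was lost without GlnIND library 1 (adjusted p = 0.0853).

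The highest canonical small-subunit values at 10 CPM or more did not pass the edgeR test. RPS21 had 567, 467 and 486 CPM in GlnIND libraries, against 268, 354 and 496 CPM in parental libraries. RPS29, a zinc-binding protein of the small-subunit head, had 315, 248 and 252 CPM in GlnIND libraries, against 132, 184 and 297 CPM in parental libraries. In both, parental library 3 lay among the GlnIND values, which gave fold changes of 0.44 and 0.41 on the log2 scale (adjusted p in edgeR = 0.0636 and 0.164). Without parental library 3 they passed, at 0.68 and 0.76 (adjusted p in edgeR = 0.00103 and 0.00133), and RPS21 also passed without parental library 1, at 0.24 (adjusted p = 0.00139). RPS21 lay near the threshold: it passed in DESeq2 (adjusted p = 0.0291), in limma-voom (adjusted p = 0.045), with no filter on low counts (adjusted p = 0.022), with upper-quartile factors (adjusted p = 0.0354) and with library totals (adjusted p = 0.0247).

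**Figure D2:**
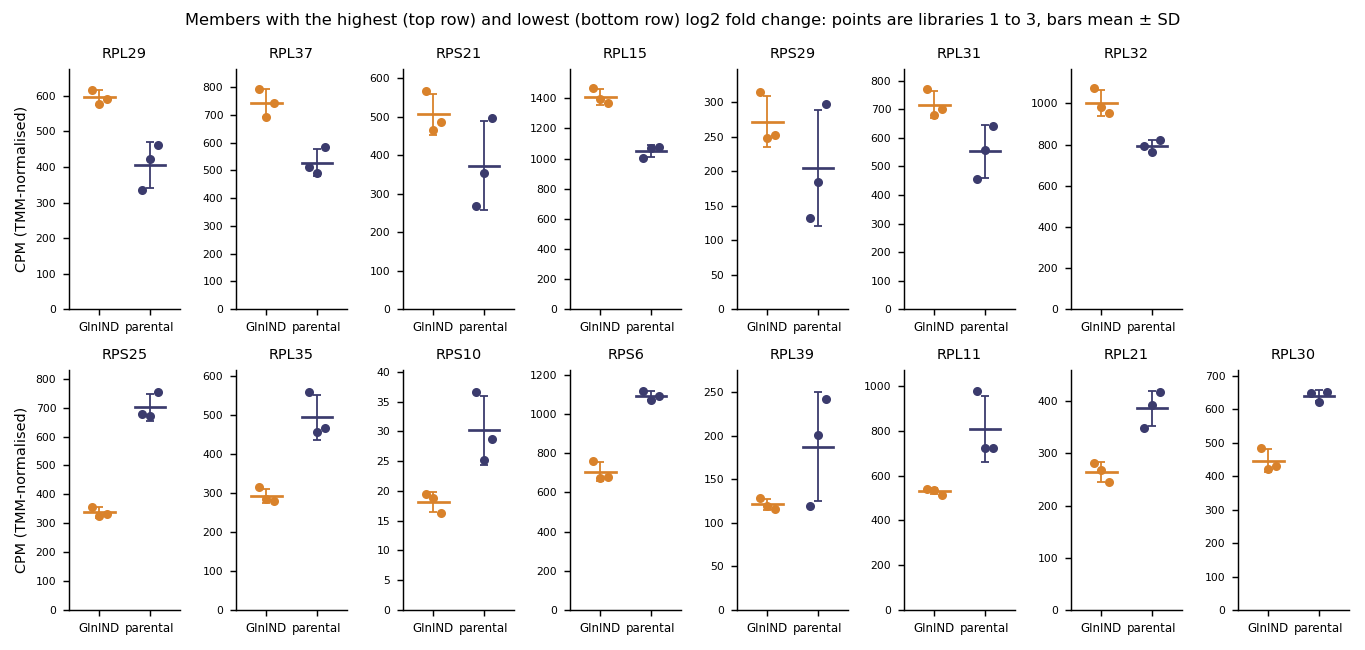
CPM (y axis, from 0) of canonical members among the 8 with the highest log2 fold change (upper row, 7 shown) and of the 8 with the lowest (lower row), in GlnIND and parental libraries 1 to 3 from left to right within a group, with mean ± SD. RPS21, RPS29 and RPL39 overlap between the groups and the other 12 do not.

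The most abundant members moved in different directions. RPLP0, the base of the ribosomal stalk, had 2081, 1951 and 1834 CPM in GlnIND libraries, against 1505, 2149 and 2370 CPM in parental libraries. The parental values spanned the GlnIND ones, at a log2 fold change of -0.04 ± 0.14 (adjusted p in edgeR = 0.834). RPL6 of the large subunit fell by 0.33, to 1365, 1296 and 1246 CPM in GlnIND libraries against 1812, 1548 and 1557 CPM in parental libraries (adjusted p in edgeR = 0.00467). RPL13A, which can also leave the ribosome to join a translational repressor complex, had 1613, 1459 and 1427 CPM in GlnIND libraries, against 1247, 1275 and 1348 CPM in parental libraries. It rose by 0.22 without overlap (adjusted p in edgeR = 0.0216), a call lost without GlnIND library 1 (adjusted p = 0.13), GlnIND library 2 (adjusted p = 0.0595) or parental library 2 (adjusted p = 0.0941). With a trend by GC content removed, RPL13A stood at 0.07 and was not called (adjusted p = 0.404). RPL4, whose loop reaches into the peptide tunnel, had 1431, 1395 and 1349 CPM in GlnIND libraries, against 1325, 1263 and 1283 CPM in parental libraries. Its groups did not overlap, yet its log2 fold change of 0.11 did not pass (adjusted p in edgeR = 0.137). It passed with library totals, at 0.26 (adjusted p = 0.00209), with upper-quartile factors, at 0.20 (adjusted p = 0.0112), and without parental library 1, at 0.12 (adjusted p = 0.0109).

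Of the most abundant small-subunit members, RPS2 at the mRNA entry channel had 1089, 1102 and 996 CPM in GlnIND libraries, against 1327, 1505 and 1534 CPM in parental libraries. RPS24, a Diamond-Blackfan anaemia gene, had 955, 930 and 858 CPM in GlnIND libraries, against 1507, 1219 and 1195 CPM in parental libraries. Both fell without overlap, by 0.45 and 0.52 on the log2 scale (adjusted p in edgeR = 0.000647 and 0.00114). RPS23, a protein of the decoding centre, had 1209, 1189 and 1078 CPM in GlnIND libraries, against 1217, 1051 and 1128 CPM in parental libraries. The groups overlapped, and its log2 fold change was 0.03 (adjusted p in edgeR = 0.722), or 0.19 with library totals (adjusted p = 0.0359).

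To find members that depart from the others, the same edgeR test was run with each library scaled to the median of the canonical members. In GlnIND cells 21 members lay above that middle and 17 below it, and 44 were not called (adjusted p under 0.05 over all genes). The same scaling placed 35.4% of all tested genes above and 16.3% below. Of canonical members, 11 large and 9 small lay above, and 10 large and 7 small lay below. The lowest was RPS25, at -0.89 ± 0.12 relative to the middle member (adjusted p in edgeR = 8.06e-07). It was followed by RPL35 at -0.61, RPS10 at -0.59 and RPS6 at -0.48 (adjusted p in edgeR = 0.000458, 0.00345 and 0.00151). The highest called canonical members were RPL29 at 0.72, RPL37 at 0.65 and RPS21 at 0.62 (adjusted p in edgeR = 2.42e-05, 5.85e-05 and 0.000676). RPS18, at about 1 CPM, stood higher, at 0.84, but was not called (adjusted p in edgeR = 0.0649). Leaving out 1 GlnIND library reduced those above to 12 or 13 and those below to 6 or 7, and leaving out parental library 2 left 11 below.

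Some variant copies differed in their change from the gene they resemble, and others did not. RPS27L, a p53-inducible paralog of RPS27, had 93.5, 81.2 and 78.9 CPM in GlnIND libraries, against 46.1, 46.0 and 62.7 CPM in parental libraries. It rose without overlap, at a log2 fold change of 0.71 ± 0.13 (adjusted p in edgeR = 0.00101). RPS27, a zinc-binding small-subunit protein, had 417, 397 and 377 CPM in GlnIND libraries, against 529, 517 and 529 CPM in parental libraries. It fell without overlap by 0.40 (adjusted p in edgeR = 0.000388). RPS27L counts were therefore 22.4, 20.5 and 20.9% of those of RPS27 in GlnIND libraries and 8.72, 8.90 and 11.9% in parental libraries, groups that did not overlap. Of the start windows above, that of RPS27 holds a TOP tract and that of RPS27L none. RPL7L1, whose window holds none, fell, and RPL29, whose window holds one, rose. A link between tract and change was not tested.

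RPL7L1, a paralog of RPL7 found in preribosomes, had 982, 942 and 936 CPM in GlnIND libraries, against 1126, 1172 and 1177 CPM in parental libraries. It fell by 0.28 without overlap (adjusted p in edgeR = 0.00234), and was not called with library totals, at -0.13 (adjusted p = 0.0772). RPL7 itself had 680, 629 and 629 CPM in GlnIND libraries, against 970, 890 and 895 CPM in parental libraries, and fell by 0.51 (adjusted p in edgeR = 0.000133). The counts of RPL7L1 thus exceeded those of RPL7 in every library, at 148 ± 2.8% of them in GlnIND cells and 126 ± 8.9% in parental cells (SD, n = 3 each), but counts are not set against gene length here.

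RPL22L1, which can take the place of RPL22 in ribosomes, had 89.0, 83.7 and 79.9 CPM in GlnIND libraries, against 79.8, 66.4 and 90.2 CPM in parental libraries. These overlapped, at a log2 fold change of 0.09 (adjusted p in edgeR = 0.473), while RPL22 fell by 0.35, to 320, 307 and 304 CPM in GlnIND libraries against 411, 387 and 393 CPM in parental libraries (adjusted p in edgeR = 0.000664). The value for RPL22L1 moved with the setting: it was 0.30 and called with the GC trend removed (adjusted p in edgeR = 0.0282), and -0.03 without parental library 2 (adjusted p = 0.795). As a share of RPL22 counts, RPL22L1 stood at 27.1 ± 0.79% in GlnIND cells and 19.9 ± 2.9% in parental cells (SD, n = 3 each), without overlap. RPL26L1 was at 8.27 ± 0.67% of RPL26 in GlnIND cells and 7.93 ± 0.30% in parental cells, and RPL39L, known from mouse as a testis-enriched copy, at 15.3 ± 0.59% of RPL39 in GlnIND cells and 11.4 ± 3.8% in parental cells. Both shares overlapped between groups, and neither copy was called (log2 fold changes of -0.18 and -0.09, adjusted p in edgeR = 0.147 and 0.459), nor was RPL26 (-0.24, adjusted p = 0.103), which passed without parental library 2, at -0.35 (adjusted p = 0.0383).

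**Figure D3:**
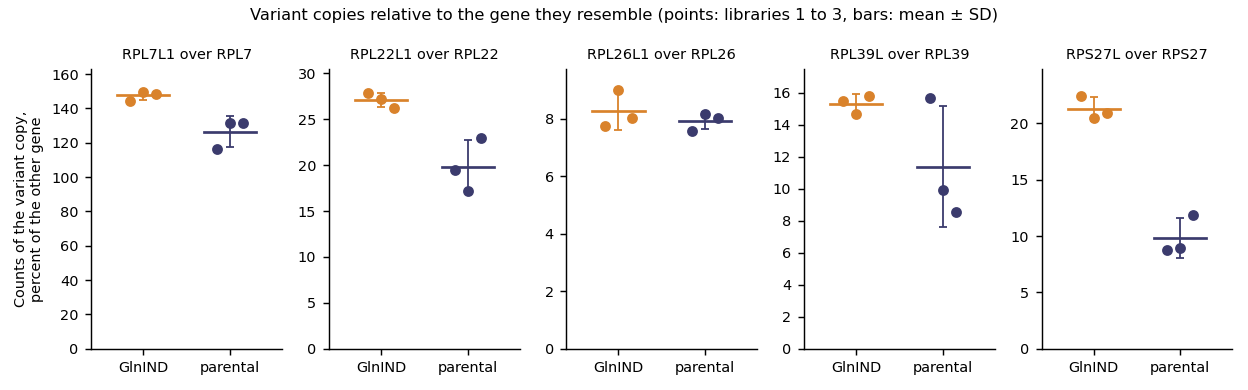
Counts of 5 variant copies as a percentage of the counts of the gene each resembles (y axis, from 0), in GlnIND and parental libraries 1 to 3 from left to right within a group, with mean ± SD. The RPS27L share was 20.5 to 22.4% in GlnIND libraries and 8.72 to 11.9% in parental libraries.

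The remaining variant copies were near or at 0. RPL10L, RPS4Y1 and RPS4Y2 had no count in any library, and RPL3L had 7 counts over the 3 GlnIND libraries and 6 over the 3 parental ones, too few to test. The floor of 6 counts, taken because low counts were even numbers in 60.6 to 65.0% of genes under 20 counts, corresponded to at most 0.28 CPM in a GlnIND library and 0.33 CPM in a parental library. Among the genes they resemble, RPL3, near the peptidyl transferase centre, was not called (log2 fold change 0.14, adjusted p in edgeR = 0.264), but passed with library totals, at 0.29 (adjusted p = 0.0404). RPS4X fell by 0.47 (adjusted p in edgeR = 0.000273).

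Some canonical members had levels that the ribosome's composition makes hard to read. RPS18, RPL36A and RPL17 stayed under 10 CPM on average, although they are counted among the canonical proteins of the ribosome. RPL36AL, a ribosomal protein gene outside the name rule, had a mean of 249 CPM in GlnIND cells and 276 CPM in parental cells. RPL36A and RPS18 had 0.54 to 0.65 and 1.03 to 1.42 CPM in GlnIND libraries, against 0.63 to 0.89 and 0.57 to 1.09 CPM in parental libraries. Neither was called (adjusted p in edgeR = 0.401 and 0.117). RPL17 had 7.35 to 7.70 CPM in GlnIND libraries, against 7.74 to 14.0 CPM in parental libraries, and fell by 0.59 (adjusted p in edgeR = 0.0298), a call lost when any library other than parental library 1 was left out (adjusted p = 0.0742 to 0.0861), in limma-voom (adjusted p = 0.0514), with upper-quartile factors (adjusted p = 0.062) and with library totals (adjusted p = 0.0988). GENCODE lists 1132 pseudogenes named after 76 of the 77 canonical members, so reads of a member can match several places. How such reads were counted is not given in the sources used here. RPS18, RPL36A and RPL17 have 5, 19 and 26 of these pseudogenes. RPL23A, with 91, had a mean of 609 CPM in GlnIND cells and 615 CPM in parental cells. As for RPS10, read-through genes share exon bases with RPL17 (RPL17-C18orf32, 24.8%) and RPL36A (RPL36A-HNRNPH2). The cause of the low levels was not tested. The 31 pseudogene rows of the tables took 0.01% of the counts in both groups.

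Many members changed in the direction of the genes around them on the chromosome. For each of 82 members, the median log2 fold change of the 40 nearest tested genes outside the members was taken as its surroundings. Of these, 58 had the sign of their surroundings, and across members Pearson's r was 0.60, a description over genes that share libraries and, in part, neighbours. Agreement with the surroundings was not computed for the other tested genes, so whether it is particular to the members was not tested. All 10 members that rose lay where the neighbouring median was above 0, and 25 of the 34 that fell lay where it was below 0. RPS25 stood at -1.05 on chromosome 11 with neighbours at -0.93, and RPL29 at 0.55 on chromosome 3 with neighbours at 0.47. On chromosome 9 all 4 tested members fell, on chromosome 1 all 5 and on chromosome 4 all 3. On chromosome 19, with 12 tested members, 3 rose and 2 fell, and on chromosome 3, with 9, 3 rose and 1 fell. The 4 members on the X chromosome lay in surroundings with a median of -0.80. These stood at -0.82 for RPL10, -0.78 for RPL36A and -0.88 for RPL39, but at -0.05 for RPS4X.

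With the neighbours' median subtracted, 1 member rose and 30 fell, 20 of them among the 34. The one that rose was RPS27L, at 0.60 (adjusted p in edgeR = 0.00324). Over all 13949 tested genes the same fit called 3333 higher and 3494 lower. RPS25 then stood at -0.12 (adjusted p = 0.188) and RPL39 at 0.25 (adjusted p = 0.324), so that neither was called. RPL35 and RPS6 still fell, at -0.55 and -0.32 (adjusted p in edgeR = 0.00075 and 0.00312). RPL29 stood at 0.08, RPL37 at 0.13, RPL15 at -0.04, RPL31 at 0.01, RPL32 at -0.06 and RPL13A at -0.15, none of them called. RPL21, RPL30, RPL6, RPL22 and RPL17, which fell in the full test, stood at -0.08, -0.03, -0.04, -0.07 and -0.16, also not called, while RPL26 and RPL26L1 were called, at -0.59 and -0.29 (adjusted p in edgeR = 0.00236 and 0.0338). The lowest values belonged to genes whose neighbours were not lower, namely RPS2 at -0.86, RPS10 at -0.80 and RPL7L1 at -0.72 (adjusted p in edgeR = 1.81e-05, 0.0013 and 1.05e-05), with neighbours at 0.41, 0.07 and 0.44. Relative to the middle member, 10 then lay above and 15 below. The neighbours' medians came from the main fit of the same libraries and were taken as fixed. The p-values of this paragraph therefore leave out the error of those medians.

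**Figure D4:**
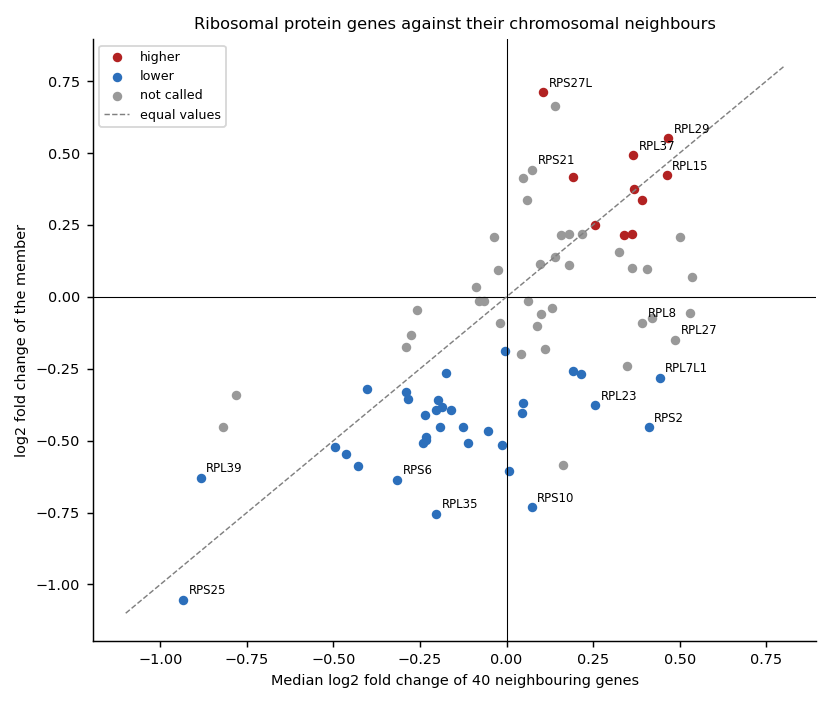
Log2 fold change of each of 82 members (y axis, GlnIND over parental) against the median log2 fold change of 40 neighbouring genes (x axis), coloured by call, with a dashed line of equal values. RPS25 lies close to the line at the lower left, RPS27L well above it, and RPS2, RPS10 and RPL7L1 well below it.

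Parental library 1 stood apart from the other parental libraries in the members, and also over all tested genes. On the second axis of a principal component analysis of all tested genes (7.8% of the variance) it lay at -33.9. Parental libraries 2 and 3 lay at 15.3 and 20.8 on that axis, and GlnIND libraries at -2.61 to 1.03. The log2 ratio of library 1 to the mean of libraries 2 and 3 had an SD of 0.05 over 73 members in GlnIND cells and 0.34 in parental cells, and that of parental library 2 to 3 had an SD of 0.13. In 13 members parental library 1 differed by more than 0.5. The lowest was RPL10, a protein needed for the final maturation of the large subunit. It had 482, 486 and 445 CPM in GlnIND libraries, against 346, 713 and 877 CPM in parental libraries. The parental values lay on both sides of the GlnIND ones, and the log2 fold change of -0.45 ± 0.26 was not called (adjusted p in edgeR = 0.159), though it was with the GC trend removed, at -0.56 (adjusted p = 0.0359), and stood at 0.37 with the neighbours' median subtracted (adjusted p = 0.268). Without parental library 1 it fell by 0.76, and RPLP0, at -0.22, was also called. In that fit 15 members rose and 46 fell, among them all 10 and all 34 of the full set. The calls over all genes grew too, to 4601 higher and 4679 lower, against 3965 and 3888 with all libraries.

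**Figure D5:**
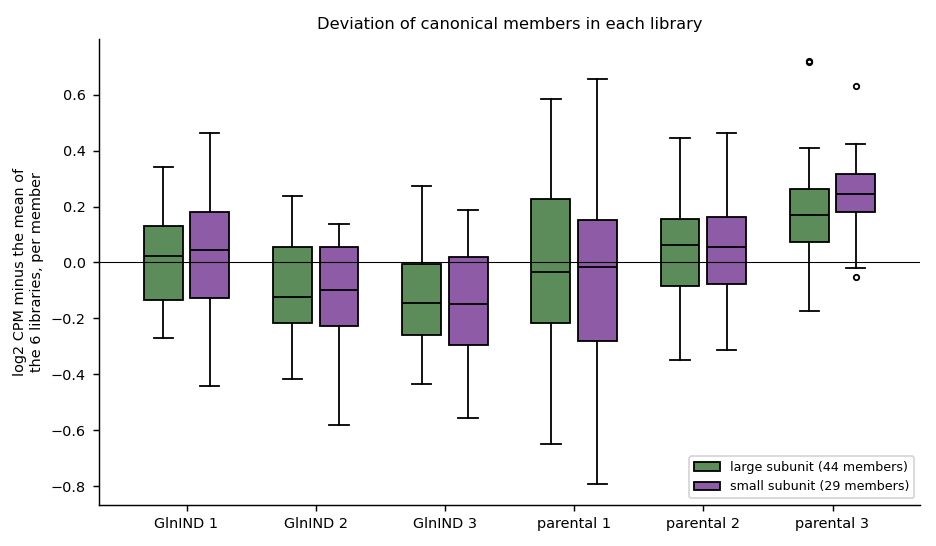
Log2 CPM of canonical members at 10 CPM or more in each library, minus the member's mean over the 6 libraries (y axis), for 44 large-subunit and 29 small-subunit members. Boxes give the quartiles and median, whiskers reach at most 1.5 interquartile ranges, and circles are members beyond; parental library 1 has the widest boxes and parental library 3 the highest medians.

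Ribosomal proteins outside the name rule were 4, of which FAU rose and the others were not called. FAU, which encodes RPS30 fused to a ubiquitin-like protein, had 365, 337 and 337 CPM in GlnIND libraries, against 143, 184 and 216 CPM in parental libraries. Its log2 fold change of 0.94 ± 0.13 (adjusted p in edgeR = 0.000192) exceeded that of every tested member, and its neighbours stood at 0.72. RACK1, a scaffold protein on the small subunit, had a log2 fold change of 0.14 (adjusted p in edgeR = 0.208). That of RPL36AL was -0.15 (adjusted p in edgeR = 0.307).

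Of 20 other genes whose mRNAs carry a TOP start, mostly translation factors, 14 fell, 3 rose and 3 passed in neither direction, with a median log2 fold change of -0.34. For this and the further lists, the shares over all tested genes were 27.9% fallen and 28.4% risen with a median of 0.03, and those over other genes in the members' CPM range were 38.6% fallen and 22.3% risen. GAS5, a small nucleolar RNA host transcript, fell by 0.84, to 81.1, 72.1 and 67.5 CPM in GlnIND libraries against 121, 125 and 150 CPM in parental libraries (adjusted p in edgeR = 8.34e-05). EIF3A, the largest subunit of initiation factor eIF3, fell by 0.75 (adjusted p in edgeR = 0.000967). The 3 that rose were VIM (0.61), EIF2S3 (0.51) and EEF1G (0.17), with adjusted p in edgeR = 5.16e-05, 5.21e-05 and 0.039. Of 14 genes that control ribosomal protein genes or their mRNAs, 5 fell, 2 rose and 7 passed in neither direction (median -0.09). LARP4, a poly(A)-tail binding protein that stabilises such mRNAs, fell by 0.97 (adjusted p in edgeR = 1.52e-05), and RPS6KB2, an S6 kinase, rose by 0.77 (adjusted p in edgeR = 0.00206). LARP1 and MTOR had log2 fold changes of -0.14 and -0.01 (adjusted p in edgeR = 0.0583 and 0.919).

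Of 7 dedicated chaperones of single ribosomal proteins, BCCIP, which escorts RPL23, fell by 0.66 (adjusted p in edgeR = 0.000148) and HEATR3, which acts for RPL5 and RPL11, rose by 0.39 (adjusted p in edgeR = 0.00322), and 5 passed in neither direction (median 0.06). Of 77 tested mitochondrial ribosomal proteins, which build the separate ribosome of that organelle, 25 fell, 15 rose and 37 passed in neither direction (median -0.09). MRPL36 rose by 0.82 and MRPL21 by 0.72 (adjusted p in edgeR = 6.17e-05 and 0.000201).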

How the data were processed

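Polyadenylated RNA of 3 GlnIND and 3 parental MDA-MB-231 libraries had been made into counts per gene by the authors. Per the submitters' processing notes, the tools included FastQC, STAR, featureCounts and DESeq and the build was hg19; versions, strand setting and handling of multiply mapping reads are not given in the sources used here. The deposited values are raw counts, with no normalization in the tables used. The series-wide count matrix held the same counts, with the names of replicates 1 and 3 exchanged in each group, and the per-library tables were used.

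Counts were filtered (filterByExpr, minimum count 10 in a group's number of libraries and 15 in total), scaled by TMM and tested over 13949 genes with edgeR 4.0.16 in R 4.3.3 (quasi-likelihood test, two-sided, Benjamini-Hochberg adjustment, threshold 0.05), on all 6 libraries with group as the only term; CPM are TMM-normalised. DESeq2 1.42.0 and limma 3.58.1 were alternatives. A shared replicate number did not pair libraries. Gene order, GC content and coding length came from GENCODE 29 on another build than the counts, so it gave no coordinates, and start sequences came from RefSeq. Named were the 8 canonical members with the highest and lowest log2 fold change at 10 CPM or more. Also named were the 4 most abundant of each subunit, all variant copies with the genes they resemble, and members under 10 CPM. The 2 strongest called genes of each further list were named too. RPL5, RPL36AL, RPL41, RACK1, LARP1, MTOR, VIM, EIF2S3 and EEF1G were added after values were seen. Some genes that this rule names are not reported here. The members, lists and tests were chosen with earlier results of these data known. Floors cover counting error only, while SDs and the SEs of the edgeR fit also include spread between libraries.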

Additional observations from a re-analysis of the deposited data

How the results depend on the processing

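Apart from member-median scaling, counts of members that fell and of all genes in either direction stayed within 1.5 times their values in every alternative. Scaling to the member median left 17 members and 2275 genes lower, against 34 and 3888 with TMM. The number that rose was 20 with library totals, 6 at adjusted p under 0.01, 1 with the neighbour shift removed and 5 to 17 with a library left out. The large-subunit median was -0.12 with the neighbour shift removed, -0.041 with library totals and -0.10 after upper-quartile scaling, and the small-subunit median was -0.24 to -0.038 with a library left out. Members above the member median numbered 13 at adjusted p under 0.01, 10 with TMM factors, 10 with the neighbour shift removed and 12 to 26 with a library left out, and those below numbered 6 at adjusted p under 0.01, 34 with TMM factors and 6 to 22 with a library left out. With the neighbour shift removed the sign turned for the called and named members RPL13A (-0.15), RPL15 (-0.040), RPL32 (-0.055) and RPL39 (0.25). It also turned for members not called in the full test, among them RPL10 (0.37), RPL36A (0.43), RPL4 (-0.071) and RPL3 (-0.0044). The cause was not tested. With all genes, library totals gave 5356 higher and 2810 lower and upper-quartile factors 4749 and 3204, against 3965 and 3888 with TMM.

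Removing a GC trend gave 9 members that rose and 36 that fell, and 22 above and 18 below the member median. The centring of the removed GC trend and neighbour shift was set after values were seen, because as first run it undid the scaling to the members; without centring, the GC trend left 8 above and 36 below, and the neighbour shift 10 above and 14 below.

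With the replicate number as a block, 9 members rose and 32 fell, and 15 lay above and 6 below the member median. Same-numbered libraries correlated in their deviations at -0.06, 0.03 and -0.04, so the numbers were not taken to pair them. Under the block 2 of the 10 members that rose, RPL13A among them, and 3 of the 34 that fell lost their call, and RPL26 and RPS21 gained one.

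RPL3L, RPL36A and RPS18 had few counts, which limits their precision, and with 3 libraries a group small shifts of abundant members were limited by the spread between libraries. Protein sequences were not used here.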
